A study of Mus musculus with 8 samples.

Results

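Non-additive expression in mouse embryonic stem cells that had lost both Jmjd1a and Jmjd1b was read as an interaction: the effect of losing Jmjd1b in cells without Jmjd1a, minus its effect in cells that still had Jmjd1a. It is written (double-KO minus Jmjd1a-KO) minus (Jmjd1b-KO minus WT) and was formed from group means of log2 values. It is 0 where the double loss equals the sum of the single losses, and a difference of 1 on this scale is a doubling. The probe sets taken were the 11502 of 45101 whose values spanned at least 0.01 over the 8 arrays, or 25.5%, and they covered 7181 genes. The narrowest span inside this limit was 0.0101 and the widest outside it was 0.00967, and the 33599 probe sets outside it hold no usable difference.

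Gene expression was measured on 8 Affymetrix arrays, 2 biological replicates in each of 4 groups. The double-KO cells carried deleted alleles of both genes (Jmjd1adelta/delta; Jmjd1bdelta/delta). Jmjd1a-KO cells lacked Jmjd1a and kept Jmjd1b, Jmjd1b-KO cells lacked Jmjd1b and kept Jmjd1a, and WT cells were Jmjd1a+/+; Jmjd1b+/+. All 4 groups are described as grown with LIF, the cytokine that keeps mouse embryonic stem cells undifferentiated, and the protocol of all 8 samples names 800 nM OHT, the ligand that switches on the MerCreMer recombinase. The double-KO cells were made in culture: a floxed Jmjd1b allele was placed in a Jmjd1a-deficient line and deleted with OHT. The design text describes Jmjd1b-deficient lines made with a Cre-expressing adenovirus from a targeted line, whereas the sample labels call the Jmjd1b-KO and WT cells derived from mice. The sources used here do not say which array came from which line, so differences between lines and differences between genotypes cannot be told apart. P-values measure the spread between the 2 samples of each group.

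Jmjd1a and Jmjd1b, now named Kdm3a and Kdm3b, encode closely related JmjC-domain enzymes that remove mono- and dimethyl marks from lysine 9 of histone H3. These marks are placed mainly by the G9a/GLP complex (Ehmt2 and Ehmt1) and accompany gene silencing. Related enzymes with shared substrates are commonly studied by setting the loss of both beside the loss of each. JMJD1A is also known for its role in mouse male germ cells and in sex determination, and both enzymes are broadly expressed.

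The 2 target genes matched the labels. Kdm3a read 4.60 and 4.77 in double-KO cells, 5.08 and 4.87 in Jmjd1a-KO cells, 12.80 and 12.83 in Jmjd1b-KO cells and 12.83 and 12.73 in WT cells. Kdm3b read 7.06 and 7.66 in double-KO cells, 9.95 and 9.81 in Jmjd1a-KO cells, 7.07 and 7.10 in Jmjd1b-KO cells and 9.91 and 9.96 in WT cells. Each gene was lower on the 4 arrays that should lack it than on the other 4, with no overlap. The interaction was -0.32 ± 0.14 (SE, adjusted p = 0.135) for Kdm3a and 0.34 ± 0.26 (adjusted p = 0.382) for Kdm3b, so neither passed the threshold. Without double-KO replicate 1 it was 0.637 for Kdm3b (adjusted p = 0.0270).

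Stem cell identity genes were measured on every array: Pou5f1 lay between 12.07 and 12.67 and Sox2 between 12.06 and 12.91, whereas Esrrb spanned 3.51 and was lowest, at 7.68, on double-KO replicate 1. Zfp42 spanned 2.04 and was higher on every array without Jmjd1a than on any array with it. Nanog spanned 1.66, Utf1 1.27, Dppa5a 1.21, Lin28a 1.09, Sall4 0.76 and Dppa4 0.52. The SD over probe sets of the difference between the 2 arrays of a group was 0.300 and 0.345 in the double-KO and Jmjd1a-KO groups, against 0.120 and 0.161 in the Jmjd1b-KO and WT groups. Array medians lay between 6.80 and 6.81, and the 3 probe sets for 18S rRNA spanned between 1.27 and 1.74 over the arrays, against at most 0.234 for Actb and Gapdh control probe sets. Deposited values carry no detection calls. A group mean below the lower quartile of the table, 6.35, is therefore named as a low level.

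The interaction passed the threshold, an adjusted p under 0.05 in limma's test with Benjamini-Hochberg adjustment over the 11502 probe sets, at 2868 probe sets (24.9%). It was positive at 1597 (13.9%) and negative at 1271 (11.1%). Taken with 1 probe set per gene, 1839 of 7181 genes passed (25.6%), 981 positive (13.7%) and 858 negative (11.9%). Among the 2868, the size of the interaction had a median of 0.80, against 0.29 over all probe sets tested, and it ran from -4.76 to 6.49. It was at least 1 at 999 probe sets, at least 2 at 214 and at least 3 at 52. The sign was the same in all 16 ways of taking 1 array per group at every one of the 2868, and at 6695 of all 11502. These 16 values recombine the arrays that the test itself used, so their agreement adds no support. As a condition for naming genes it removed none. Where a gene's informative probe set with the highest mean passed, 835 of 897 further informative ones (93.1%) had an interaction of the same sign. These read the same samples, and the agreement at genes that did not pass was not counted. The number that passed depended on single arrays: it was 1758 when the first double-KO array was left out, 1080 and 915 when the first or the second Jmjd1b-KO array was, and 1193 and 1209 when the first or the second WT array was. When flat probe sets were kept in the fit 1247 passed, of which 542 were among the 2868.

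Each probe set was put in 1 of 3 classes by its group means. The double loss reversed the sum where the 2 had opposite signs and both were at least 0.5 in size. Of the rest, it exceeded the sum where it was larger in absolute size and fell short where it was smaller. These classes therefore also hold opposite signs where the sum or the double loss was under 0.5. Examples are Ifitm3 (sum 0.44, double loss -2.72) and Dusp9 (sum 2.36, double loss -0.29). With reversal counted by sign alone, 589 of the 2868 exceeded, 627 fell short and 1652 reversed. Of the 2868, 1284 exceeded the sum (44.8%), 1382 fell short (48.2%) and 202 reversed it (7.04%). The shares over all 11502 probe sets were 44.8, 53.3 and 1.91%. The interaction was positive at 725 of those that exceeded, 746 of those that fell short and 126 of those that reversed.

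**Figure D1:**
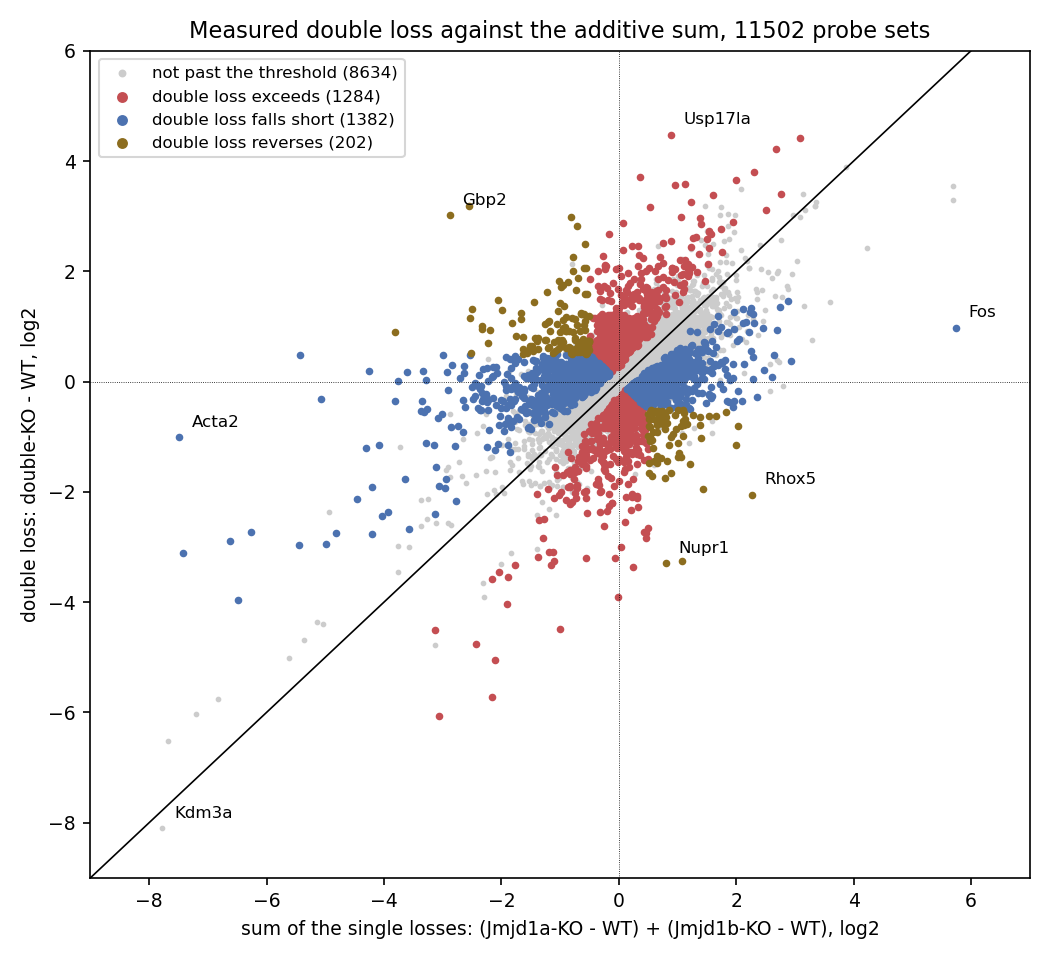
Difference of double-KO from WT (vertical axis, log2) against the sum of the 2 single-KO differences from WT (horizontal axis, log2) for 11502 probe sets. Grey points did not pass the interaction threshold; coloured points passed and show the class; the solid line is exact additivity. Kdm3a lies near the line at the lower left, whereas Acta2, Fos, Gbp2 and Rhox5 lie far from it.

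Read as the effect of Jmjd1b loss, the 2868 probe sets split in a second way. The effect passed the threshold in cells without Jmjd1a at 3329 of all probe sets (28.9%), and in cells with Jmjd1a at 2744 (23.9%). Among the 2868, 1227 passed only in cells without Jmjd1a, 832 only in cells with Jmjd1a, 571 in both and 238 in neither. Of the 571, 467 moved opposite ways: 250 were higher after Jmjd1b loss without Jmjd1a and lower after it with Jmjd1a, and 217 were the other way round. The other 104 moved the same way by different amounts. These 2 contrasts use separate arrays and together form the interaction, so their split describes it and adds no support to it.

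Several subgroups were counted after the values had been seen. They were counted among the 2868 only. Their shares over all 11502 probe sets were not taken, so no excess over that background can be read from them. At 196 probe sets each single loss moved the value by less than 0.5 and the double loss moved it by at least 1; 128 of these were higher and 68 lower in double-KO than in WT cells. At 236 probe sets that fell short, at least 1 single loss moved the value by 1 or more, and at 151 of those the double-KO mean lay within 0.5 of WT. In 134 of the 151 the larger single effect was that of Jmjd1b loss, and in 17 that of Jmjd1a loss. At 45 of the probe sets that fell short both single losses moved the value by at least 1 the same way, 38 down and 7 up. The double-KO effect lay within 0.5 of the larger single effect at 20 of them and was weaker by at least 0.5 at 25; the class holds only double losses smaller than the sum, so Pcolce, where both single losses were of this size and the double loss exceeded their sum, is not among them.

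The genes named next are those with the largest interactions of each class and sign. Among genes that ended higher in double-KO cells than the sum, Usp17la had the smallest standard error. This deubiquitinase belongs to a multicopy family, linked in mouse to the 2-cell stage, whose copies the probe set may not separate. It read 10.18 and 10.19 in double-KO cells, against 5.99 and 5.93 in Jmjd1a-KO cells, 6.32 and 6.36 in Jmjd1b-KO cells and 5.66 and 5.75 in WT cells. Only the double-KO arrays were high, and the means of the other 3 groups were in the low range. Its interaction was 3.59 ± 0.08 (adjusted p = 0.000141), against an additive level of 6.60 that is built from these low values.

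Fgf5, the growth factor that marks epiblast after implantation, read 9.22 and 8.47 in double-KO cells, against 5.69 and 6.25 in Jmjd1a-KO cells, 6.19 and 6.20 in Jmjd1b-KO cells and 6.14 and 6.20 in WT cells. It was in the low range in all groups but double-KO, and its interaction was 2.85 ± 0.39 (adjusted p = 0.00785). Fgfbp1, a secreted protein that binds and releases fibroblast growth factors, read 10.48 and 9.97 in double-KO cells, against 7.40 and 8.06 in Jmjd1a-KO cells, 7.24 and 6.88 in Jmjd1b-KO cells and 7.29 and 7.42 in WT cells. Neither single loss changed it past the threshold (adjusted p = 0.364 for Jmjd1a and 0.459 for Jmjd1b), and the interaction was 2.80 ± 0.39 (adjusted p = 0.00782). St8sia4, which adds polysialic acid to the cell adhesion molecule NCAM, stood at 8.36 and 8.03 in double-KO cells, against 6.29 and 6.13 in Jmjd1a-KO cells, 5.68 and 5.81 in Jmjd1b-KO cells and 6.09 and 6.11 in WT cells (interaction 2.34 ± 0.17, adjusted p = 0.00244). Trim12c, of the TRIM family of ubiquitin ligases, differed from these in that Jmjd1a loss alone lowered it. Its values were 9.54 and 9.18 in double-KO cells, against 6.73 and 6.50 in Jmjd1a-KO cells, 7.87 and 7.58 in Jmjd1b-KO cells and 7.37 and 7.32 in WT cells, with an interaction of 2.36 ± 0.23 (adjusted p = 0.00371). Vwa5a completed the set at 2.61 ± 0.27 (adjusted p = 0.00426), but its second probe set gave 0.04.

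Among genes lower in double-KO cells than the sum, 3 act in collagen processing, folate metabolism or amino acid metabolism. Pcolce, which helps remove the C-terminal propeptide of collagen, read 5.19 and 6.16 in double-KO cells, against 10.13 and 10.42 in Jmjd1a-KO cells, 10.31 and 10.39 in Jmjd1b-KO cells and 11.38 and 11.41 in WT cells. The single losses took it down by 1.12 and 1.04 (adjusted p = 0.0529 and 0.0530), and the double loss took it to the low range (interaction -3.56 ± 0.42, adjusted p = 0.00557). On the linear scale, with each value divided by the mean over the 8 arrays, its interaction was 0.145 (adjusted p = 0.294), of the other sign. Mthfd2, a mitochondrial enzyme of folate metabolism, read 7.92 and 8.92 in double-KO cells, against 10.85 and 11.04 in Jmjd1a-KO cells, 11.93 and 12.09 in Jmjd1b-KO cells and 11.16 and 11.33 in WT cells. Bcat1, the cytosolic enzyme that starts the breakdown of branched-chain amino acids, read 6.72 and 7.91 in double-KO cells, against 10.22 and 10.56 in Jmjd1a-KO cells, 11.15 and 11.28 in Jmjd1b-KO cells and 10.62 and 10.75 in WT cells. Both were lowest on the 2 double-KO arrays with no overlap, and their interactions were -3.29 ± 0.44 (adjusted p = 0.00713) and -3.60 ± 0.52 (adjusted p = 0.00877). For Bcat1 the 3 probe sets disagreed, with interactions between -3.60 and 0.10.

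Ifitm3, an interferon-inducible membrane protein that in mouse also marks early germ cells, read 8.52 and 9.51 in double-KO cells, against 11.64 and 11.79 in Jmjd1a-KO cells, 12.17 and 12.23 in Jmjd1b-KO cells and 11.63 and 11.85 in WT cells (interaction -3.16 ± 0.43, adjusted p = 0.00746). Mymx, a microprotein of myoblast fusion, and 1700097N02Rik gave -3.47 ± 0.94 (adjusted p = 0.0442) and -3.88 ± 0.73 (adjusted p = 0.0170). Their double-KO values differed widely, at 5.38 and 7.52 for Mymx and 5.39 and 6.25 for 1700097N02Rik. Both calls were lost without some arrays, with adjusted p up to 0.128 for Mymx and 0.0667 for 1700097N02Rik, and the probe sets of 1700097N02Rik ran from -3.88 to -0.02.

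The largest interaction of all belonged to Acta2, smooth muscle actin, where each single loss lowered the gene and the double-KO mean differed from WT by -1.0, which did not pass the threshold (adjusted p = 0.0884). It read 11.54 and 10.65 in double-KO cells, 9.84 and 8.89 in Jmjd1a-KO cells, 7.50 and 7.19 in Jmjd1b-KO cells and 11.95 and 12.24 in WT cells. The 4 groups did not overlap. Jmjd1b loss raised Acta2 by 1.73 in cells without Jmjd1a (adjusted p = 0.0263) and changed it by -4.75 in cells with Jmjd1a (adjusted p = 0.00375). The interaction was 6.49 ± 0.57 (adjusted p = 0.00318). The additive level it is measured from, 4.61, lies below the 5th percentile of the table, 5.89, where few values were measured, so its size as a fold is not given. Tagln, an actin-binding protein of the same contractile apparatus, read 10.46 and 9.75 in double-KO cells, 8.65 and 8.68 in Jmjd1a-KO cells, 7.20 and 6.99 in Jmjd1b-KO cells and 10.26 and 10.57 in WT cells. Here the double-KO and WT ranges overlapped (adjusted p of their difference = 0.333), both single-KO groups lay below them, and the interaction was 4.76 ± 0.34 (adjusted p = 0.00241).

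Other genes that fell short with a positive interaction were low in Jmjd1b-KO cells alone. Col3a1, a fibrillar collagen chain, read 8.50 and 8.25 in double-KO cells, 7.65 and 7.27 in Jmjd1a-KO cells, 5.49 and 5.14 in Jmjd1b-KO cells and 8.13 and 8.26 in WT cells (interaction 3.79 ± 0.25, adjusted p = 0.00220). Its second probe set gave 0.96. Pmp22, a membrane protein of myelin, read 9.28 and 9.0 in double-KO cells, 7.73 and 8.80 in Jmjd1a-KO cells, 6.35 and 6.12 in Jmjd1b-KO cells and 9.05 and 9.21 in WT cells (interaction 3.77 ± 0.47, adjusted p = 0.00637). In both, double-KO cells were at about the WT level and Jmjd1b-KO cells were below the lower quartile of the table. Ptn, a heparin-binding growth factor, and Fabp7, a fatty acid carrier of neural progenitors, gave 4.44 ± 0.83 (adjusted p = 0.0167) and 4.32 ± 0.96 (adjusted p = 0.0264). Both calls were lost without some arrays. Fabp7 differed from the rest, since its double-KO arrays (8.18 and 6.95) stayed below WT (10.61 and 10.72) while Jmjd1b-KO cells read 5.29 and 5.25. Of the 746 probe sets of this kind, 139 (18.6%) had an additive level below the lower quartile of the table and 88 below its 5th percentile. At such probe sets the additive level lies where few measured values do, and how far this adds to the interaction was not tested.

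Fos led the genes that fell short with a negative interaction. This immediate early transcription factor read 7.51 and 6.90 in double-KO cells, 5.98 and 5.69 in Jmjd1a-KO cells, 12.14 and 12.60 in Jmjd1b-KO cells and 6.13 and 6.34 in WT cells. Only the Jmjd1b-KO arrays were high: Jmjd1b loss raised it by 1.37 without Jmjd1a (adjusted p = 0.0131) and by 6.13 with Jmjd1a (adjusted p = 0.00145), an interaction of -4.76 ± 0.35 (adjusted p = 0.00244). Dusp9, an X-linked phosphatase of ERK, was raised by each single loss and not by both. It read 7.64 and 8.29 in double-KO cells, 9.73 and 9.49 in Jmjd1a-KO cells, 9.22 and 9.28 in Jmjd1b-KO cells and 8.28 and 8.22 in WT cells, and its interaction was -2.65 ± 0.29 (adjusted p = 0.00484). The double-KO and WT ranges overlapped and both single-KO groups lay above them. Rdh11, a retinol dehydrogenase, was similar, with 7.69 and 7.97 in double-KO cells, 9.15 and 8.75 in Jmjd1a-KO cells, 9.37 and 9.36 in Jmjd1b-KO cells and 7.97 and 8.38 in WT cells (interaction -2.31 ± 0.27, adjusted p = 0.00548).

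Klhl13, an X-linked adaptor of cullin 3 ubiquitin ligases, read 8.97 and 9.76 in double-KO cells, 9.64 and 9.84 in Jmjd1a-KO cells, 11.38 and 10.95 in Jmjd1b-KO cells and 8.96 and 9.02 in WT cells. Jmjd1b loss moved it by -0.38 without Jmjd1a (adjusted p = 0.348) and raised it by 2.18 with Jmjd1a (adjusted p = 0.00799), an interaction of -2.55 ± 0.39 (adjusted p = 0.00976). Pvr, a cell surface receptor of the nectin family, and Egln3, a prolyl hydroxylase that targets hypoxia-inducible factors, gave -2.41 ± 0.51 (adjusted p = 0.0231) and -2.27 ± 0.58 (adjusted p = 0.0387). Jmjd1a-KO arrays of both genes were far apart, at 9.63 and 8.42 for Pvr and 10.07 and 8.80 for Egln3, and each call was lost without some arrays.

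In the class where the sign turned, Gbp2 stood first. It encodes an interferon-inducible GTPase and read 10.66 and 9.88 in double-KO cells, 4.96 and 5.73 in Jmjd1a-KO cells, 5.99 and 6.58 in Jmjd1b-KO cells and 7.10 and 7.42 in WT cells. The single-KO groups lay below WT and the double-KO arrays lay above it. Jmjd1a loss alone changed it by -1.91 (adjusted p = 0.0254), the double loss raised it by 3.01 (adjusted p = 0.00208), and the interaction was 5.89 ± 0.53 (adjusted p = 0.00351). Anxa1, a calcium-dependent membrane-binding protein, read 10.93 and 10.02 in double-KO cells, 7.97 and 8.24 in Jmjd1a-KO cells, 7.21 and 7.22 in Jmjd1b-KO cells and 9.45 and 9.68 in WT cells. Each single loss lowered it (adjusted p = 0.0255 for Jmjd1a and 0.00762 for Jmjd1b), the double loss raised it (adjusted p = 0.0458), and the interaction was 4.72 ± 0.41 (adjusted p = 0.00306). Rpl39l, a ribosomal protein paralogue best known from male germ cells, read 11.89 and 11.44 in double-KO cells, 8.49 and 8.0 in Jmjd1a-KO cells, 10.11 and 9.81 in Jmjd1b-KO cells and 10.19 and 10.52 in WT cells, and had an interaction of 3.81 ± 0.33 (adjusted p = 0.00318). Only Jmjd1a loss lowered it alone (adjusted p = 0.00748), since the effect of Jmjd1b loss did not pass (adjusted p = 0.262). Id4, an inhibitor of helix-loop-helix factors, gave 3.79 ± 0.77 (adjusted p = 0.0207), with double-KO arrays at 11.36 and 9.55, and its call was lost without some arrays.

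Rhox5, an X-linked homeobox gene, was the counterpart with a negative interaction. It read 8.46 and 8.73 in double-KO cells, 9.75 and 9.49 in Jmjd1a-KO cells, 14.11 and 13.76 in Jmjd1b-KO cells and 10.61 and 10.68 in WT cells. The 4 groups were fully separate: Jmjd1b loss changed Rhox5 by -1.03 without Jmjd1a (adjusted p = 0.00813) and raised it with Jmjd1a by 3.30 (adjusted p = 0.00181), an interaction of -4.33 ± 0.22 (adjusted p = 0.00149). Plekha4, which binds membrane phosphoinositides, read 5.43 and 5.99 in double-KO cells, 8.74 and 8.28 in Jmjd1a-KO cells, 10.53 and 10.44 in Jmjd1b-KO cells and 8.92 and 9.0 in WT cells (interaction -4.32 ± 0.31, adjusted p = 0.00241). Its second informative probe set gave -1.0. Laptm5, a lysosomal membrane protein, read 5.99 and 6.23 in double-KO cells, 7.99 and 8.93 in Jmjd1a-KO cells, 9.24 and 8.92 in Jmjd1b-KO cells and 8.02 and 8.08 in WT cells (interaction -3.37 ± 0.43, adjusted p = 0.00641), but its probe sets ran from -3.37 to -0.11. Both genes were in the low range only in double-KO cells. Of the 32 genes named by class, 25 passed in all 8 fits that left 1 array out; the others were 1700097N02Rik, Mymx, Ptn, Fabp7, Pvr, Egln3 and Id4. With flat probe sets kept in the fit 18 of the 32 did not pass: those 7 and Fgf5, Fgfbp1, Bcat1, Pcolce, Mthfd2, Ifitm3, Pmp22, Klhl13, Rdh11, Nupr1 and Laptm5, with adjusted p between 0.0562 (Rdh11) and 0.243 (Mymx).

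**Figure D2:**
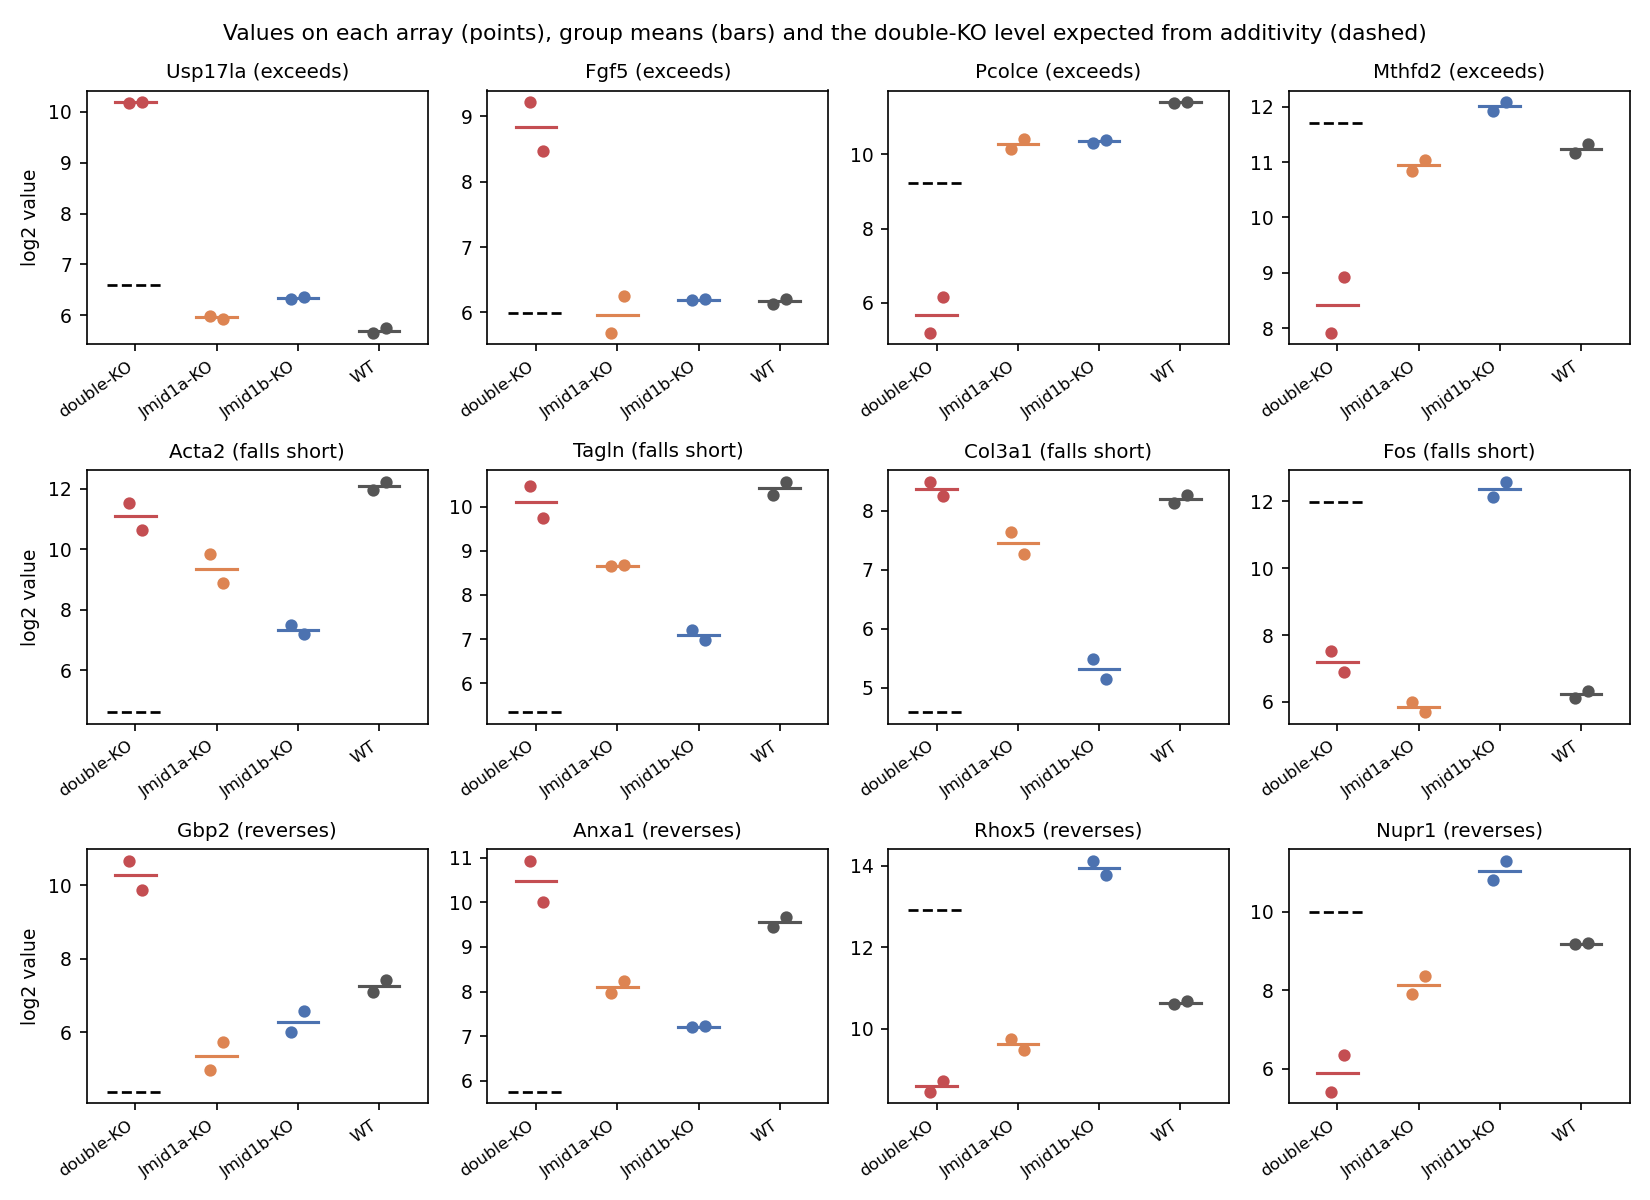
Log2 values of 12 of the named genes on each array, with double-KO, Jmjd1a-KO, Jmjd1b-KO and WT cells from left to right. Points are arrays, bars are group means and the dashed line is the double-KO level that adding the single losses would give. Double-KO cells stand alone for Usp17la and Fgf5, Jmjd1b-KO cells stand alone for Fos, and double-KO cells lie on opposite sides of WT from the dashed line for Gbp2 and Rhox5.

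Gene lists were then read against the share of all 7181 genes. In the integrated stress response, the program in which ATF4 switches on amino acid uptake and synthesis, all 30 tested members had an interaction below 0. Of these 21 passed with a negative interaction and 0 with a positive one, against 11.9 and 13.7% of all genes, and the median was -1.16, against 0.01 over all genes. Jmjd1b loss lowered 19 of the 30 and raised 0 in cells without Jmjd1a, where it lowered 11.8% and raised 17.9% of all genes. It raised 5 and lowered 0 in cells with Jmjd1a, where it raised 13.6% and lowered 10.2% of all genes. Atf4 itself read 10.53 and 11.09 in double-KO cells, 11.79 and 11.80 in Jmjd1a-KO cells, 12.25 and 12.24 in Jmjd1b-KO cells and 12.15 and 12.16 in WT cells (interaction -1.07, adjusted p = 0.0265). The double-KO arrays were the 2 lowest.

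Nupr1, a stress-induced chromatin protein, had the largest interaction of the list. It read 5.42 and 6.36 in double-KO cells, 7.91 and 8.36 in Jmjd1a-KO cells, 10.80 and 11.29 in Jmjd1b-KO cells and 9.17 and 9.21 in WT cells, so that the groups were fully separate (interaction -4.10 ± 0.48, adjusted p = 0.00539). Jmjd1b loss changed Nupr1 by -2.24 without Jmjd1a and raised it by 1.86 with Jmjd1a (adjusted p = 0.00778 and 0.0185). Cth, which makes cysteine from cystathionine, was moved by -0.89 without and 2.25 with Jmjd1a (adjusted p = 0.0310 and 0.00476), an interaction of -3.14 (adjusted p = 0.00390). Stc2, a secreted glycoprotein, and Psph, the last enzyme of serine synthesis, had the same 2 signs, with interactions of -2.02 (adjusted p = 0.0128) and -1.81 (adjusted p = 0.00421). In the members that follow, too, the double-KO mean was the lowest of the 4. Chac1, which degrades glutathione, averaged 6.46 in double-KO cells, against 8.66 in Jmjd1a-KO cells, 9.66 in Jmjd1b-KO cells and 9.71 in WT cells (interaction -2.14, adjusted p = 0.0336). The amino acid transporters Slc7a1, Slc7a3, Slc7a5 and Slc3a2 had interactions of -1.64, -2.11, -1.17 and -1.01, all past the threshold. So did Psat1 (-1.26) and Phgdh (-0.85) of serine synthesis and Shmt2 (-1.13) of folate metabolism. Asns, Ddit3, Ddit4 and Cebpb, with -1.26, -1.15, -1.21 and -0.60, did not pass.

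The count of 21 rested on several arrays. It was 8 and 4 when the first or the second Jmjd1b-KO array was left out, 7 and 6 when the first or the second WT array was, and 14 when the first double-KO array was. With flat probe sets kept in the fit it was 2. Aminoacyl-tRNA synthetases, enzymes that load tRNAs with amino acids several of which ATF4 also drives, had a similar order of groups. Jmjd1b loss lowered 12 of 18 tested and raised 0 without Jmjd1a, and raised 2 and lowered 0 with it. In the interaction 9 passed with a negative interaction and 0 with a positive one (median -0.38), against 11.9 and 13.7% of all genes. The 9 were led by Cars (-1.49, adjusted p = 0.0113), Aars (-1.14, adjusted p = 0.0281) and Nars (-1.07, adjusted p = 0.00657). All 9 were of the class where the double loss exceeded the sum.

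Promoters of stress response members were searched for the C/EBP-ATF response element, TGATGNAA on either strand, the site at which ATF4 and C/EBP partners are known to bind. Windows ran from 250 bases before to 50 after each start in RefSeq's sequences of GRCm38.p6. Of the 17 members past the threshold with a promoter entry 6 held the letters (Atf3, Chac1, Trib3, Nupr1, Vldlr and Pck2), and 4.51% of 27025 genes did. The list holds genes of this response by choice, and members that did not pass were not searched. These shares therefore cannot link the letters to the interaction. The 3 printed here, 250 bases up to the start with the match in capitals, belong to members with large interactions; all 3 matches read on the opposite strand, so the capitals show the reverse complement.
Nupr1 (chr7:126625471-126625720, minus strand): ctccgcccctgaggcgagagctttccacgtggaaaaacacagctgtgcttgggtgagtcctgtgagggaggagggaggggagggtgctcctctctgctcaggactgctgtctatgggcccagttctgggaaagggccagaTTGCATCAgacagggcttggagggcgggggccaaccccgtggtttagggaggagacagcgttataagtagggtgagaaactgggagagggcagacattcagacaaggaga
Chac1 (chr2:119350992-119351241, plus strand): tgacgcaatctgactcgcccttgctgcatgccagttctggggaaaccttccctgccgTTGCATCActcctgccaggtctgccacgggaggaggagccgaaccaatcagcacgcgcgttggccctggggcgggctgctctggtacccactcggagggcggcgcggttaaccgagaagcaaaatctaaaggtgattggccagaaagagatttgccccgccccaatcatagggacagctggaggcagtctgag
Pck2 (chr14:55540016-55540265, plus strand): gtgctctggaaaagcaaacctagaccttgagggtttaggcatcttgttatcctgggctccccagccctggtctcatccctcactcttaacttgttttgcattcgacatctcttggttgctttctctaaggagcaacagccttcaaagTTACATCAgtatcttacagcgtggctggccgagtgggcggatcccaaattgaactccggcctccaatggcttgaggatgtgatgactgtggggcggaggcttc
The match began 110 bases before the start in Nupr1, 193 in Chac1 and 103 in Pck2. A match is a description of the letters, and binding was not measured. Pck2, mitochondrial PEP carboxykinase, had an interaction of -1.47 (adjusted p = 0.0160), and its second probe set gave -0.11.

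In sterol synthesis, the pathway from acetyl-CoA to cholesterol, negative interactions also outnumbered positive ones. Of 19 tested members 13 passed with a negative interaction and 0 with a positive one (median -1.0), against 11.9 and 13.7% of all genes. Jmjd1b loss lowered 14 and raised 1 without Jmjd1a, and it raised 4 and lowered 3 with Jmjd1a. Lss, which closes the lanosterol ring, averaged 8.40 in double-KO cells, 10.26 in Jmjd1a-KO cells, 10.76 in Jmjd1b-KO cells and 9.90 in WT cells. Mvd, of the mevalonate pathway, averaged 8.19 in double-KO cells, 9.84 in Jmjd1a-KO cells, 9.98 in Jmjd1b-KO cells and 9.22 in WT cells. Msmo1, which demethylates sterols at carbon 4, averaged 10.39 in double-KO cells, 12.27 in Jmjd1a-KO cells, 12.29 in Jmjd1b-KO cells and 11.75 in WT cells. For all 3 both single-KO means were above WT and the double-KO mean below it, with interactions of -2.71 (adjusted p = 0.00539), -2.42 (adjusted p = 0.00707) and -2.42 (adjusted p = 0.00723). Fdft1 and Pmvk also reversed (-1.42 and -1.36), and Stard4, Sc5d, Nsdhl, Fdps, Sqle and Idi1 exceeded the sum, with interactions between -1.47 and -0.60. Srebf2, the factor that drives the pathway, gave -0.39 (adjusted p = 0.0846), and Insig1, which restrains it, 0.32 (adjusted p = 0.371). The letters TCACNCCAC, a form of the sterol regulatory element, were in 0 of 9 promoters of these members and in 1.44% of all genes. The count of 13 was 7 and 5 when the first or the second Jmjd1b-KO array was left out, and 8 when either WT array was.

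**Figure D3:**
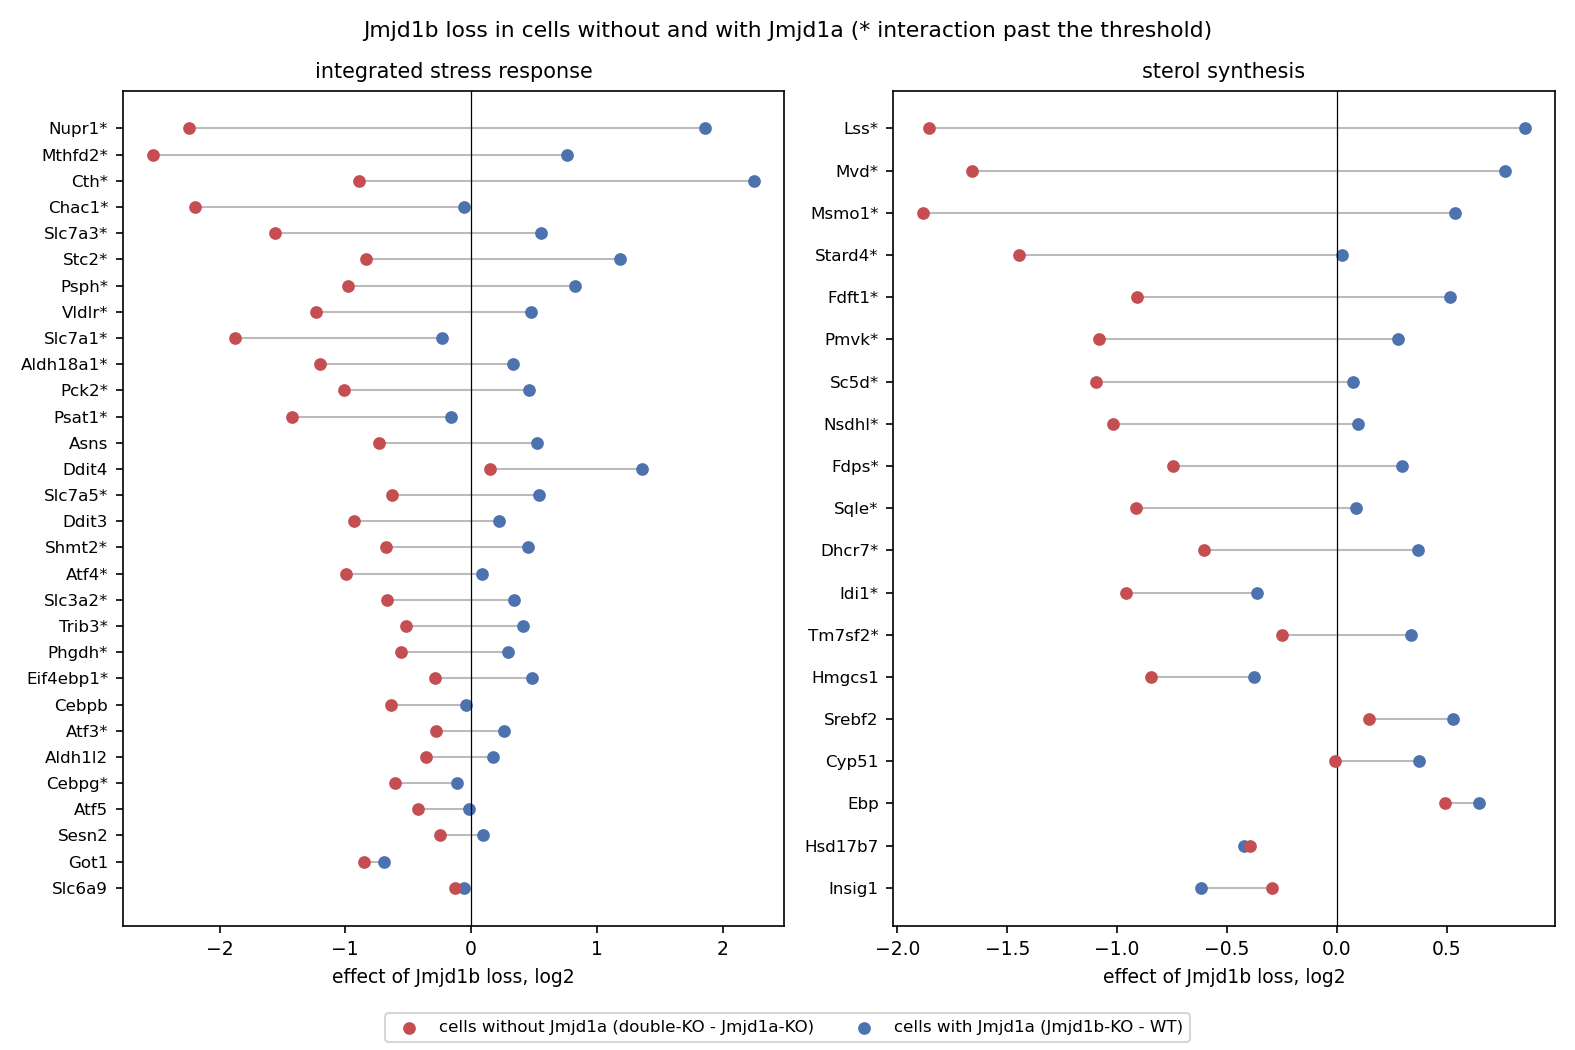
Effect of Jmjd1b loss (horizontal axis, log2) in cells without Jmjd1a (red) and with Jmjd1a (blue) for the tested members of the integrated stress response and of sterol synthesis; the grey line between them is the interaction and an asterisk marks those past the threshold. Red points lie mostly left of 0, 19 of 30 lowered in the stress list and 14 of 19 in the sterol list. Of the blue effects 5 were called raised and 0 lowered in the stress list, and 4 raised and 3 lowered in the sterol list.

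Interferon-inducible genes went both ways. Of 25 listed, 15 were tested and 10 were flat. With a positive interaction 8 passed and with a negative one 4, against 13.7 and 11.9% of all genes, and the median was 0.36. Irf1, the transcription factor that many of these genes respond to, read 12.37 and 12.38 in double-KO cells, 8.79 and 8.74 in Jmjd1a-KO cells, 9.56 and 9.70 in Jmjd1b-KO cells and 9.54 and 9.57 in WT cells. Double-KO arrays were far above the rest, Jmjd1a-KO arrays were the lowest, and the interaction was 3.54 (adjusted p = 0.00016). Jmjd1b loss raised Irf1 by 3.61 without Jmjd1a and moved it by 0.08 with Jmjd1a (adjusted p = 1.5e-05 and 0.422). The GTPases of cell-autonomous immunity followed: Gbp2 at its probe set with the higher mean (5.73, adjusted p = 0.00205), Irgm1 (3.69, adjusted p = 0.00742), Gbp3 (2.87, adjusted p = 0.00241) and Igtp (0.36, adjusted p = 0.0492). B2m, the light chain of MHC class I, gave 1.15 (adjusted p = 0.0292). Oasl2 (2.28) and Psmb8 (2.10), an antiviral protein and an immunoproteasome subunit, each had an adjusted p of 0.00205. In Irf1, Gbp2, Gbp3, Irgm1, Oasl2 and Psmb8 the double-KO mean was above WT and the sum of the single losses below it. Members with a negative interaction were Ifitm3, Ifitm1 (-2.04, adjusted p = 0.0109), Oas1a (-1.28, adjusted p = 0.00878) and Stat2 (-0.63, adjusted p = 0.0444). The interferon-driven genes Ifit1, Ifit2, Ifit3, Irf7, Usp18 and Rsad2 were flat and hold no measured difference. The count of 8 was 6 or 7 whichever array was left out.

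The promoters of the 8 positive members were searched on both strands for the interferon-stimulated response element, 2 copies of GAAA with any 2 bases between them, and the gamma-activated site, TTCNNNGAA, bound by IRF and STAT factors. The first was in 5 of 8 (Gbp2, Gbp3, Igtp, Irgm1 and B2m), against 3.99% of all genes, and the second in 3 of 8 (Irf1, Igtp and Psmb8), against 9.55%. The list holds interferon-inducible genes by choice and its other members were not searched, so these shares cannot link the letters to the interaction. The promoters of 3 genes with the largest interactions are printed, the capitals marking the response element in Gbp2 (reverse complement) and Irgm1 (2 overlapping matches) and the gamma-activated site in Irf1.
Gbp2 (chr3:142620413-142620662, plus strand): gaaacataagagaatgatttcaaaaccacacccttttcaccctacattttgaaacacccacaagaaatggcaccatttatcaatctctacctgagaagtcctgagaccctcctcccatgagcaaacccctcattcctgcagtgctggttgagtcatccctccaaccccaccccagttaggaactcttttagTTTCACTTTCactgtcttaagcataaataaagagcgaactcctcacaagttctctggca
Irgm1 (chr11:48871421-48871670, minus strand): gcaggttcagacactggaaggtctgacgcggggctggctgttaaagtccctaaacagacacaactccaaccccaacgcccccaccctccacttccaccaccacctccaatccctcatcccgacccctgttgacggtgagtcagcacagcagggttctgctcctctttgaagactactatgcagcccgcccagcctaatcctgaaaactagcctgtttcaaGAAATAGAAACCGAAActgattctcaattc
Irf1 (chr11:53769764-53770013, plus strand): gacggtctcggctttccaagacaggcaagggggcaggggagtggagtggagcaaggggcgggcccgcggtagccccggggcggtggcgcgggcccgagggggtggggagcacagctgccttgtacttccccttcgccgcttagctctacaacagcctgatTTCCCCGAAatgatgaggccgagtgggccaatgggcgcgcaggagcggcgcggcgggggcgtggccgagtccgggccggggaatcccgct
The matches began 59 bases before the start in Gbp2, 30 and 24 in Irgm1 and 90 in Irf1. Whether any factor bound there was not measured.

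Contractile genes of the smooth muscle type had the highest median interaction of the 23 lists, 1.83 over 10 tested members. Of these 8 passed with a positive and 1 with a negative interaction, against 13.7 and 11.9% of all genes. Jmjd1b loss raised 6 and lowered 0 without Jmjd1a and lowered 6 and raised 1 with Jmjd1a. Beside Acta2 and Tagln, Actc1, cardiac actin, averaged 7.77 in double-KO cells, 7.04 in Jmjd1a-KO cells, 6.59 in Jmjd1b-KO cells and 8.97 in WT cells (interaction 3.11, adjusted p = 0.00458). Cald1, which binds actin and myosin, averaged 10.56 in double-KO cells, 9.27 in Jmjd1a-KO cells, 8.22 in Jmjd1b-KO cells and 9.86 in WT cells (interaction 2.93, adjusted p = 0.00205). Cnn2, a calponin, averaged 10.85 in double-KO cells, 9.84 in Jmjd1a-KO cells, 8.84 in Jmjd1b-KO cells and 10.05 in WT cells (interaction 2.21, adjusted p = 0.00118). In Cald1 and Cnn2 the double loss reversed the sum. Myl9, a myosin light chain, was the exception, since all 3 KO groups lay below WT, at 6.07 in double-KO cells, 6.41 in Jmjd1a-KO cells, 7.05 in Jmjd1b-KO cells and 8.83 in WT cells (interaction 1.44, adjusted p = 0.0201). Cnn1 went the other way (-0.62, adjusted p = 0.0427). Actg2, Mylk, Lmod1 and Des were flat. Counts without single arrays lay between 5 and 9, with 5 without either Jmjd1b-KO array or WT replicate 2.

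Fibroblast markers also had mostly positive interactions. Such cells are often used as feeders of embryonic stem cells, and the growth protocol in the labels names no feeders. Of 12 tested 6 passed with a positive and 1 (Thy1, -0.89) with a negative interaction, against 13.7 and 11.9% of all genes. The median was 0.78. Jmjd1b loss raised 1 and lowered 4 without Jmjd1a and raised 1 and lowered 7 with Jmjd1a. Col1a2 averaged 7.63 in double-KO cells, 8.89 in Jmjd1a-KO cells, 6.86 in Jmjd1b-KO cells and 10.60 in WT cells (interaction 2.49, adjusted p = 0.00351). Tgfbi averaged 7.08 in double-KO cells, 7.24 in Jmjd1a-KO cells, 6.10 in Jmjd1b-KO cells and 9.81 in WT cells (interaction 3.54, adjusted p = 0.00266). Both were highest in WT and below it in all 3 KO groups. Col3a1, another of these markers, and Tagln had a double-KO mean within 0.5 of WT. The log2 of the summed level of the 12 markers was 13.32 in double-KO cells, 13.43 in Jmjd1a-KO cells, 12.99 in Jmjd1b-KO cells and 13.90 in WT cells, and that of the 10 contractile genes 13.12, 12.09, 11.48 and 13.35 in the same order. Col6a1, Col6a2, Lox, Loxl1, Dcn, Lum, Pdgfra and S100a4 were flat. The part of other cells in the contractile and collagen results was not tested, and in such bulk samples fewer cells of a type and less RNA per cell cannot be told apart. The count of 6 was 3 without WT replicate 2 or Jmjd1b-KO replicate 2.

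The CArG box, bound by serum response factor and known from contractile genes, was searched only in its strict form: CC, a fixed run of A or T bases, and GG. It was in 3 of 7 promoters of contractile members with a positive interaction past the threshold (Cnn2, Myl9 and Actc1), against 1.81% of all genes. Here too the list was chosen by gene function and its other members were not searched, so these shares cannot link the letters to the interaction. Forms that depart from these letters were not counted. The Acta2 promoter had no strict match, but it holds ccctatatgg and ccttgtttgg, each with a C or G inside the run of A or T. Both printed promoters carry the strict form in capitals, beginning 56 bases before the start in Cnn2 and 47 in Actc1.
Cnn2 (chr10:79988350-79988599, plus strand): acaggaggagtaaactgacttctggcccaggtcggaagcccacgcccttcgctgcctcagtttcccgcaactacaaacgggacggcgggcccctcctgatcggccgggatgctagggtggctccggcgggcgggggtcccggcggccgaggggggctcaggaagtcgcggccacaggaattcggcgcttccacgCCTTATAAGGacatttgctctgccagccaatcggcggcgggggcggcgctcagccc
Actc1 (chr2:114052876-114053125, minus strand): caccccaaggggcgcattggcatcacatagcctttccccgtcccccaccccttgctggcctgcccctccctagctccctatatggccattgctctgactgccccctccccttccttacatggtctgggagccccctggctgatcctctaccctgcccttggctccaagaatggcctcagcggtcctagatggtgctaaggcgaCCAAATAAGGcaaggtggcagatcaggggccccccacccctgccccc

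**Figure D4:**
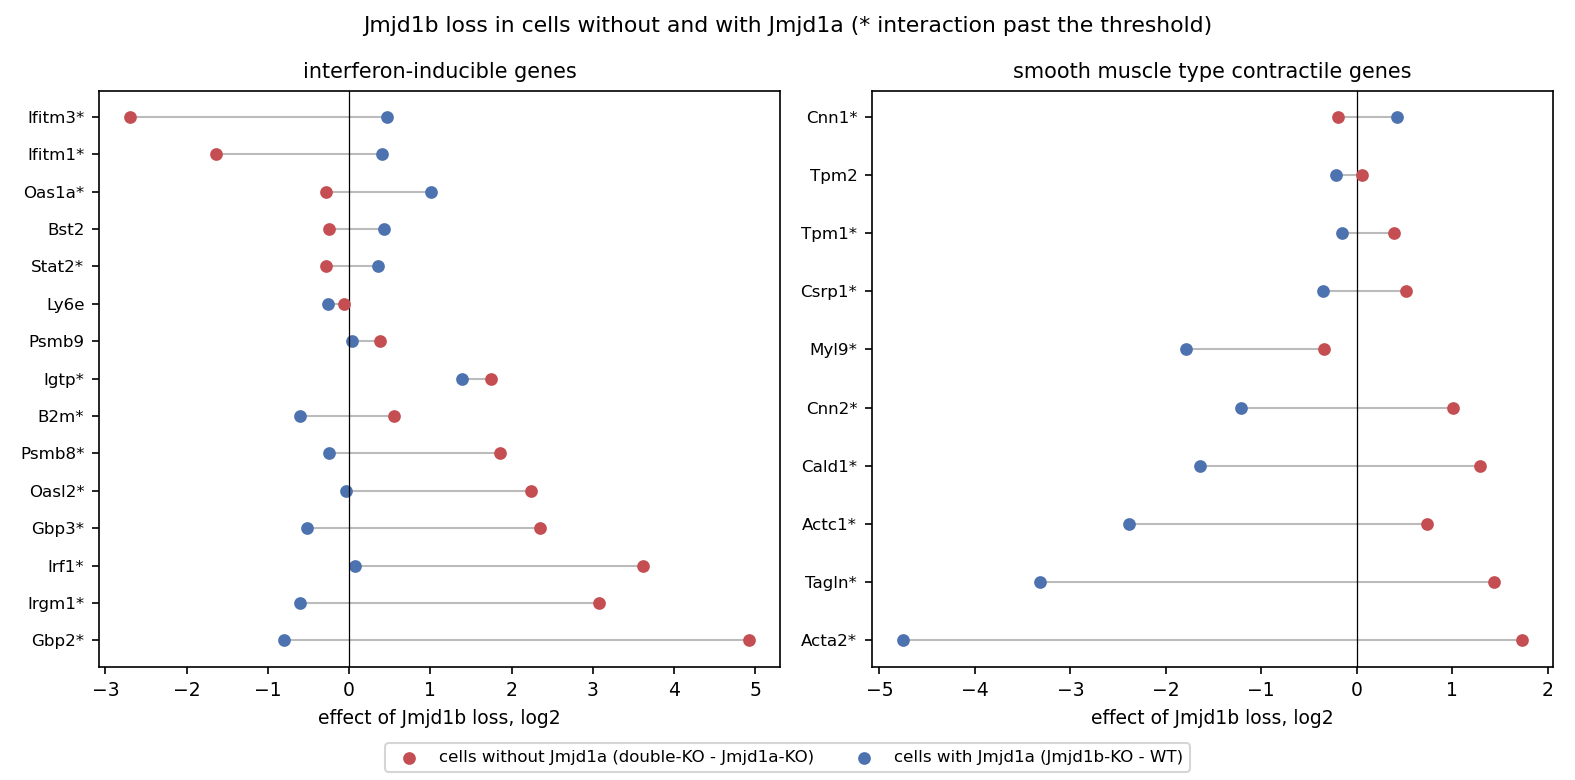
Effect of Jmjd1b loss (horizontal axis, log2) in cells without Jmjd1a (red) and with Jmjd1a (blue) for the tested interferon-inducible and smooth muscle type contractile genes; asterisks mark interactions past the threshold. In the interferon list the red point lies to the right of the blue one by over 2 log2 units for Gbp2, Irgm1, Irf1, Gbp3, Oasl2 and Psmb8, and in the contractile list red points lie right of 0 for Acta2 and Tagln where blue points lie left of it.

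Germline genes that promoter DNA methylation is known to keep silent were often raised by Jmjd1b loss, and for 7 of 19 tested its effect was more positive without Jmjd1a. Jmjd1b loss raised 14 and lowered 1 without Jmjd1a, and raised 12 and lowered 0 with it. The interaction passed with a positive sign for 7 and a negative one for 2 (median 0.31), against 13.7 and 11.9% of all genes. Dazl, an RNA-binding protein of germ cells, averaged 9.57 in double-KO cells, 6.79 in Jmjd1a-KO cells, 8.05 in Jmjd1b-KO cells and 6.72 in WT cells (interaction 1.45, adjusted p = 0.00244). Mael, of the piRNA pathway, averaged 9.17 in double-KO cells, 6.69 in Jmjd1a-KO cells, 8.32 in Jmjd1b-KO cells and 7.32 in WT cells (interaction 1.49, adjusted p = 0.00817). Slc25a31, the ADP/ATP carrier of sperm, and Tex19.1, which restrains retrotransposons, gave 1.54 (adjusted p = 0.00564) and 2.09 (adjusted p = 0.00707). The Jmjd1a-KO mean was 0.07 above WT for Dazl and below WT for the other 3, and the means of both other KO groups were above WT for all 4. Hormad1, of meiotic chromosomes, was an exception, with 7.05 in double-KO cells, 6.33 in Jmjd1a-KO cells, 9.64 in Jmjd1b-KO cells and 7.74 in WT cells (interaction -1.18, adjusted p = 0.0131).

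Enzymes of DNA methylation included 3 of the larger negative interactions. Of 11 tested 3 passed, against 25.6% of all genes, a share near that background. For negative interactions alone the share of all genes was 11.9%. All 3 were negative: Dnmt3l (-2.41, adjusted p = 0.0143), Dnmt3a (-2.17, adjusted p = 0.0159) and Tet2 (-2.03, adjusted p = 0.0303). Dnmt3a, a de novo DNA methyltransferase, averaged 8.49 in double-KO cells, 10.68 in Jmjd1a-KO cells, 11.78 in Jmjd1b-KO cells and 11.80 in WT cells, and its 5 probe sets ran from -2.17 to -0.17. Dnmt3l, its cofactor without catalytic activity, averaged 9.16 in double-KO cells, 9.71 in Jmjd1a-KO cells, 13.14 in Jmjd1b-KO cells and 11.27 in WT cells. For Dnmt3l the means of both groups without Jmjd1a were below WT and Jmjd1b loss alone raised it (1.87, adjusted p = 0.0135). Dnmt3b gave 0.25 (adjusted p = 0.417) and Uhrf1 0.14 (adjusted p = 0.283), while Dnmt1 was flat.

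Among 15 tested enzymes and readers of H3K9 methylation, the mark that both demethylases remove, 2 passed with a positive and 3 with a negative interaction. Over all genes the shares were 13.7 and 11.9%. Ehmt2, the methyltransferase G9a, averaged 8.86 in double-KO cells, 9.58 in Jmjd1a-KO cells, 10.62 in Jmjd1b-KO cells and 9.54 in WT cells (interaction -1.80, adjusted p = 0.00914). Jmjd1b loss changed it by -0.72 without Jmjd1a and raised it by 1.08 with Jmjd1a (adjusted p = 0.0370 and 0.0165). Jmjd1c, the third member of the family, gave -0.69 (adjusted p = 0.0303), with double-KO the lowest group. Cbx5, which encodes HP1 alpha, gave 0.72 (adjusted p = 0.0276), although its probe sets ran from -0.04 to 0.72. Trim28 and Cbx1 moved by 0.35 and -0.27.

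Of 29 tested pluripotency genes 7 passed, against 25.6% of all genes, a share near that background. For positive interactions alone the share of all genes was 13.7%. All 7 were positive, while 15 of the 29 had an interaction below 0: Tbx3 (1.39), Nr5a2 (1.16), Sall4 (0.94), Prdm14 (0.91), Tfcp2l1 (0.88), Klf2 (0.77) and Il6st (0.74). Klf2 averaged 12.62 in double-KO cells, 10.77 in Jmjd1a-KO cells, 11.73 in Jmjd1b-KO cells and 10.65 in WT cells, and so rose furthest with both losses. Pou5f1 (-0.30, adjusted p = 0.356), Nanog (0.22, adjusted p = 0.605) and Sox2 (-0.03, adjusted p = 0.915) did not pass, nor did Esrrb (-2.31, adjusted p = 0.0795), whose double-KO arrays disagreed. In the formative epiblast list of 18 tested genes 4 passed each way, against 13.7% (positive) and 11.9% (negative) of all genes. Cdh2, N-cadherin, averaged 10.01 in double-KO cells, 9.43 in Jmjd1a-KO cells, 6.66 in Jmjd1b-KO cells and 9.54 in WT cells (interaction 3.47, adjusted p = 0.0118), and Etv4 gave -1.25 (adjusted p = 0.00839). In the list of the 2-cell-like state, 3 of 5 tested genes passed, all positive, against 13.7% of all genes. Tcstv1 (1.23, adjusted p = 0.00513) and Zfp352 (0.75, adjusted p = 0.0127) were, like Usp17la, highest in double-KO cells, while 6 listed members were flat.

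Regulators of the G1 phase went both ways. Of 16 tested 6 passed with a positive and 4 with a negative interaction, against 13.7 and 11.9% of all genes. Ccnd1, cyclin D1, averaged 7.04 in double-KO cells, 9.82 in Jmjd1a-KO cells, 10.42 in Jmjd1b-KO cells and 11.07 in WT cells (interaction -2.12, adjusted p = 0.0195). Ccne1, cyclin E1, averaged 9.65 in double-KO cells, 10.92 in Jmjd1a-KO cells, 11.24 in Jmjd1b-KO cells and 11.15 in WT cells (interaction -1.35, adjusted p = 0.00886). The inhibitors Cdkn1b (1.15), Cdkn2a (0.87) and Cdkn2b (0.65) had positive interactions, with adjusted p of 0.00407, 0.0154 and 0.00713, and were highest in double-KO cells. Cdkn1a, the p53 target p21, was lowest there (-1.14, adjusted p = 0.0159). In Ccnd2 (1.59, adjusted p = 0.0146) and Cdkn1c (2.53, adjusted p = 0.00936), an imprinted inhibitor, the means of all 3 KO groups lay well below WT. Of 22 tested DNA replication genes 6 passed, against 25.6% of all genes, a share near that background. All 6 were negative, between -0.51 and -0.28, and 11.9% of all genes passed with a negative interaction.

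Imprinted genes were divided, with 5 of 26 tested passing each way. Over all genes 13.7% passed with a positive and 11.9% with a negative interaction, so these shares were not far above that background. Phlda2, a maternally expressed growth regulator, averaged 6.67 in double-KO cells, 9.62 in Jmjd1a-KO cells, 11.72 in Jmjd1b-KO cells and 11.72 in WT cells (interaction -2.94, adjusted p = 0.00518). Plagl1, a paternally expressed zinc finger factor, averaged 10.79 in double-KO cells, 10.43 in Jmjd1a-KO cells, 6.43 in Jmjd1b-KO cells and 8.72 in WT cells (interaction 2.65, adjusted p = 0.0444). Phlda2 was lowered by the double loss well beyond Jmjd1a loss alone. The Plagl1 mean was above WT in both groups without Jmjd1a and below WT in Jmjd1b-KO cells. Kcnq1ot1, the noncoding RNA of the Kcnq1 domain, was high in Jmjd1a-KO cells alone: it averaged 7.41 in double-KO cells, 9.05 in Jmjd1a-KO cells, 7.27 in Jmjd1b-KO cells and 7.09 in WT cells (interaction -1.82, adjusted p = 0.0264).

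**Figure D5:**
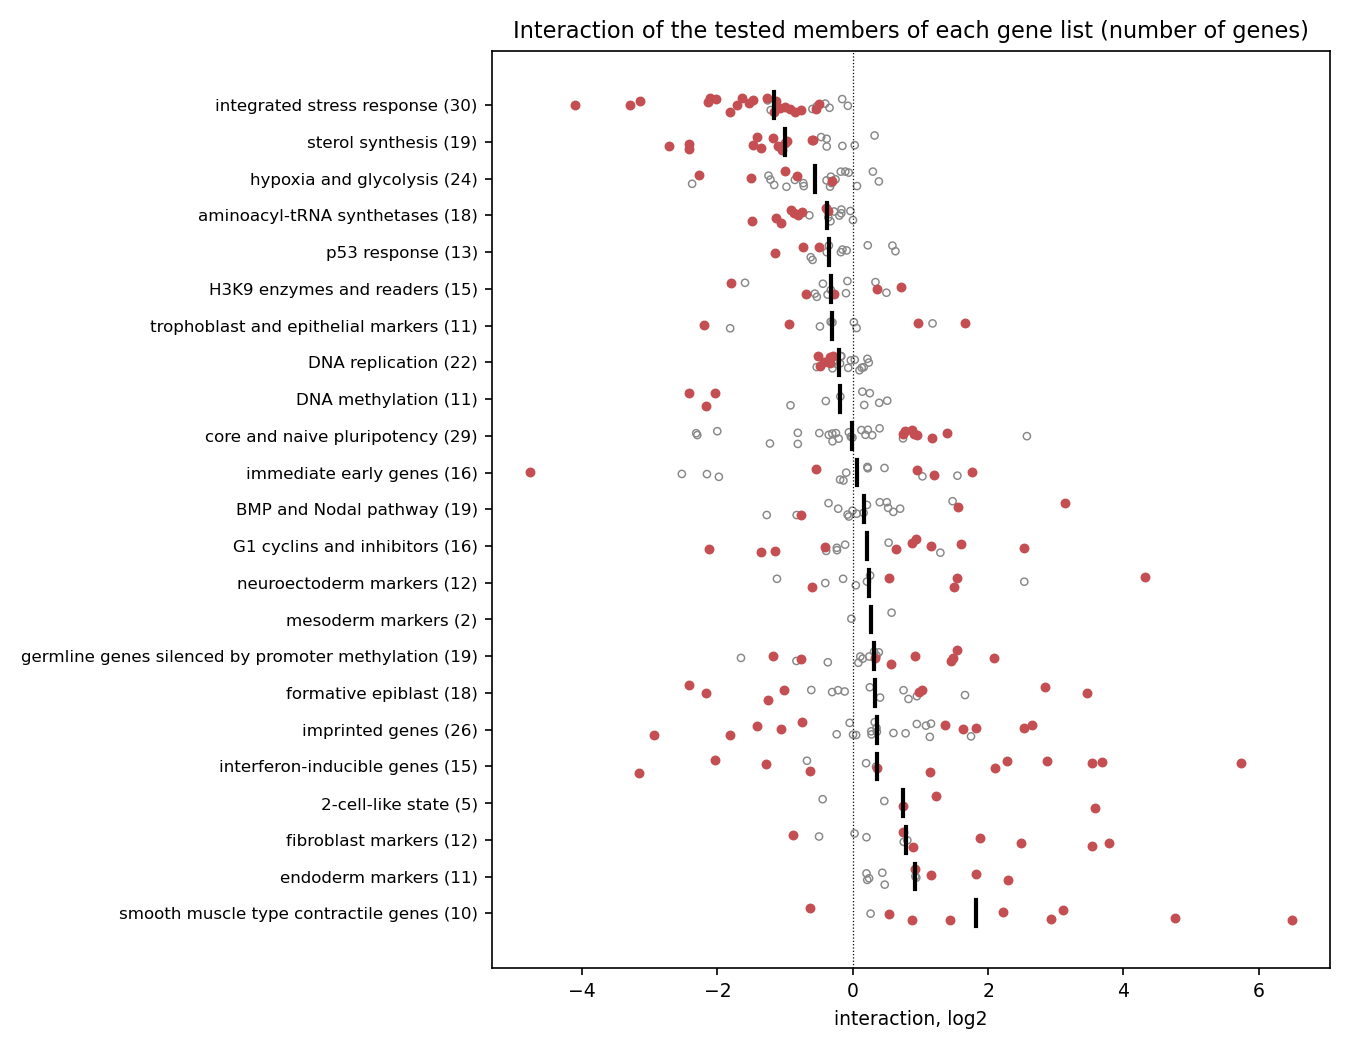
Interaction (horizontal axis, log2) of each tested member of the 23 gene lists, one list per line with the number of genes tested; filled red points passed the threshold, open grey points did not, the black bar is the list's median and the dotted line the median of all genes. Medians run from -1.16 for the integrated stress response to 1.83 for contractile genes.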

How the data were processed

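RNA of mouse embryonic stem cells was hybridised to 8 Affymetrix arrays, 1 per sample. The authors deposited log2 values, 1 per probe set and array; the unit was read from the values, and the sources used here do not give how signals were corrected, normalized or summarized. The submitters' processing notes name R 2.7.2. Probe sets were named through the platform's gene table: of the 11502 informative ones 10405 had 1 gene symbol, 364 several and 733 none, and only the first kind is named. Each sample's genotype label set its group.

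The 11502 probe sets were fitted by lmFit and eBayes of limma 3.58.1 (R 4.3.3), 1 mean per group, with 4 residual and 1.89 prior degrees of freedom and Benjamini-Hochberg adjustment over all of them. Named genes were the 6 largest interactions of each sign that exceeded or fell short of the sum and the 4 largest of each sign that reversed it, with 1 gene symbol and the same sign in all 16 single-array combinations, each at its probe set with the largest interaction; Kdm3a and Kdm3b were always named. Lists used each gene's informative probe set with the highest mean, so Gbp2 has 2 values. List members named beyond the rule were chosen after their values were seen, and the members, lists and tests were chosen with earlier results of these data known. Of 513 list entries with a gene on the array, 373 were tested.

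The number of arrays limits the precision, and signal over background was not analysed here. In 10 simulated runs of the interaction with 11502 probe sets and 200 changed ones, 22.8, 57.6, 93.2 and 96.8% of changes of 0.5, 1, 2 and 3 were recovered, with 5.22% false calls. The simulated noise was independent, with 1 spread per probe set shared by all groups. In the data the SD of replicate differences ran from 0.120 in Jmjd1b-KO to 0.345 in Jmjd1a-KO cells. These percentages therefore hold for equal spread and do not give the share of false calls among the 2868. Alternatives were the filter, fit and adjustment over flat probe sets, probe set choice, quantile normalization, centring, robust eBayes, array weights, linear scale, replicate block, stricter thresholds, class limits and omission of each array. Whether replicate numbers pair the arrays was not settled. Deviations of same-numbered arrays correlated between -0.04 and 0.24. The 18S rRNA probe sets read higher on replicate 1 than on replicate 2 in every group. Promoters and motifs were read from RefSeq's GRCm38.p6 sequences. Figures were drawn with matplotlib in Python.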

Additional observations from a re-analysis of the deposited data

Results flagged for a closer look

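The effect of Jmjd1b loss differed between cells without and with Jmjd1a, by the interaction test itself, at 1597 probe sets with a positive and 1271 with a negative difference. For the named genes the difference was 3.59 in Usp17la, 2.85 in Fgf5, 2.80 in Fgfbp1, 2.61 in Vwa5a, 2.36 in Trim12c and 2.34 in St8sia4, where the double loss ended above a sum that it exceeded. It was -3.88 in 1700097N02Rik, -3.60 in Bcat1, -3.56 in Pcolce, -3.47 in Mymx, -3.29 in Mthfd2 and -3.16 in Ifitm3, where it ended below. Where the double loss fell short of the sum, the difference was 6.49 in Acta2, 4.76 in Tagln, 4.44 in Ptn, 4.32 in Fabp7, 3.79 in Col3a1 and 3.77 in Pmp22, and -4.76 in Fos, -2.65 in Dusp9, -2.55 in Klhl13, -2.41 in Pvr, -2.31 in Rdh11 and -2.27 in Egln3. Where it reversed the sum, the difference was 5.89 in Gbp2, 4.72 in Anxa1, 3.81 in Rpl39l and 3.79 in Id4, and -4.33 in Rhox5, -4.32 in Plekha4, -4.10 in Nupr1 and -3.37 in Laptm5. With 2 arrays per group no array could be compared with a group of its own for outlying values.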

How the results depend on the processing

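Of the 2868 probe sets past the threshold, 5 changed the sign of the interaction on the linear scale, Pcolce among them at 0.145 (adjusted p = 0.294). Under the other alternatives those with a value kept their sign (1839 with 1 probe set per gene, 2532 with a span of at least 0.5, 2831 with a mean above the lower quartile); for the mean of a gene's probe sets it was not compared. With flat probe sets in the fit 1247 passed (638 positive, 609 negative; 416 exceeded, 758 fell short, 73 reversed), and the list counts were 2 for the stress response, 2 for sterol synthesis, 5 for interferon, 5 for contractile and 3 for fibroblast genes. Adjustment over all probe sets of the deposited table left 1009 (598 positive, 411 negative; 436 exceeded, 415 fell short), and the stress, sterol, contractile and fibroblast counts were 6, 7, 5 and 3. At an adjusted p under 0.01 there were 763 (460 and 303; 338, 293 and 132 by class), with list counts of 4, 6, 5 and 3 for the same lists. With a minimum size of 1 there were 999 (609 and 390; 380 exceeded, 417 fell short). With 1 probe set per gene 1894 passed, 1015 positive and 887 falling short, and the mean of a gene's probe sets gave 126 reversals and the linear scale 72. Counting reversal by sign alone gave 589, 627 and 1652, and a limit of 1 gave 28 reversals.

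Leaving out 1 array at a time, the number past the threshold ran from 915 to 3976, positive 536 to 2353, negative 379 to 1623, exceeding 402 to 1366, falling short 375 to 2394 and reversing 138 to 310. Counts ran from 4 to 22 in the stress, 5 to 16 in the sterol, 6 to 7 in the interferon, 5 to 9 in the contractile and 3 to 7 in the fibroblast list. Kdm3a ran from -0.429 to -0.217 and Kdm3b from 0.034 to 0.637, past the threshold only without double-KO replicate 1. The replicate block gave 2404, of which 2295 were among the 2868, and of the 32 named genes Egln3 was lost (adjusted p = 0.0653). Of the same 32, 18 were lost with flat probe sets in the fit and 7 with adjustment over all probe sets (1700097N02Rik, Mymx, Ptn, Fabp7, Pvr, Egln3 and Id4). On the linear scale Mymx (adjusted p = 0.167), Ptn (0.113) and Id4 (0.188) were lost beside Pcolce. The cause of these changes was not tested. The positive share of calls ran from 50.9% with centring to 61.0% with a minimum size of 1. The number of arrays limits what small interactions can show.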

Other observations

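Basement membrane genes in the endoderm list also had positive interactions. Of 11 tested members 4 passed, all positive, against 13.7% of all genes, and none of the 11 lay below 0 (median 0.92). Col4a1 averaged 9.89 in double-KO cells, 8.75 in Jmjd1a-KO cells, 7.37 in Jmjd1b-KO cells and 8.52 in WT cells (interaction 2.29, adjusted p = 0.00803), and Col4a2 followed at 1.81 (adjusted p = 0.00870), both chains of type IV collagen. The laminin genes Lama1 and Lamc1 gave 1.16 (adjusted p = 0.0230) and 0.92 (adjusted p = 0.00407), and Lamb1 gave 0.44 (adjusted p = 0.312). Gata4, Sox7, Foxa2 and Hnf4a, defining transcription factors of endoderm, were flat, and Gata6 gave 0.24 (adjusted p = 0.0694).

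Other lists held single genes that stood apart. Over all genes 25.6% passed, 13.7% with a positive and 11.9% with a negative interaction. The shares that passed in the BMP and Nodal, hypoxia and p53 lists were near or below that 25.6%. Id2, a target of BMP signalling, averaged 9.22 in double-KO cells, 8.22 in Jmjd1a-KO cells, 6.78 in Jmjd1b-KO cells and 8.92 in WT cells (interaction 3.14, adjusted p = 0.0295), and Id1 gave 1.55 (adjusted p = 0.0476), while Smad6 gave -0.77 (adjusted p = 0.00864), the only 3 of 19 tested BMP and Nodal pathway genes to pass. Of 16 immediate early genes 3 passed with a positive interaction (Ccn2 at 1.76, Klf6 at 1.20 and Ier5 at 0.95) and 2 with a negative one (Fos and Atf3), and Egr1 (-2.53, adjusted p = 0.0668) and Dusp1 (-2.15, adjusted p = 0.0526) did not. Of 24 hypoxia and glycolysis genes 5 passed, all negative, with Egln3 and Hk2 (-1.50, adjusted p = 0.0477) the largest, and of 13 p53 response genes 3 passed, all negative (Cdkn1a, Ccng1 and Mdm2). Among 11 trophoblast and epithelial markers Dsp (1.66, adjusted p = 0.0280) and Krt18 (0.97, adjusted p = 0.0109) were positive and Cldn4 (-2.21, adjusted p = 0.00475) and Cdh1 (-0.94, adjusted p = 0.00672) negative. Of 12 neuroectoderm markers 4 passed with a positive sign, led by Fabp7 and Sox11 (1.54, adjusted p = 0.0427), and 1, Nefl, with a negative one (-0.60, adjusted p = 0.0299). Neither of the 2 tested mesoderm markers passed, Tbx20 at 0.57 (adjusted p = 0.0658) and Hoxb1 at -0.02 (adjusted p = 0.969).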
